A study of Mus musculus with 7 samples.

Results

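The ZBTB genes encode transcription factors that pair an N-terminal BTB domain with C-terminal zinc fingers of the C2H2 type. Members were taken by name, as every gene row whose symbol is Zbtb followed by a number and at most 1 letter and that had at least 10 counts in at least 3 libraries. Of 53656 gene rows in the files 40 carried such a symbol, and 35 met the count rule. All 35 also passed the expression filter of the fit, which left 15896 genes to test.

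The cells were OT1 cells, CD8 T cells with a transgenic receptor for an ovalbumin peptide, sorted by CD8 and by CD45.1, a congenic marker, out of tumours of B16-OVA-GP61, a mouse melanoma line that carries ovalbumin and the GP61 epitope. In 4 libraries the tumours held no SMARTA cells and in 3 they did; SMARTA cells are CD4 T cells whose transgenic receptor recognises GP61. Both groups share the tumour line, the OT1 cells and the sort, and the sources used here give neither the hosts' strain or age nor the time of harvest. The series title asks what CD4 T cells contribute when tumour-specific CD8 T cells are reprogrammed, a question that the comparison takes up at the level of transcripts. The sources do not say that replicates are different mice, so a p-value here measures the spread among these libraries alone, and that spread may be technical.

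In a ZBTB protein the BTB domain forms dimers and docks corepressor complexes such as those built on NCOR1 and BCOR, while the zinc fingers choose the DNA site. Most members described so far act as repressors, and several decide lymphocyte fates: ThPOK (Zbtb7b) commits thymocytes to the CD4 lineage, PLZF (Zbtb16) gives natural killer T cells their innate-like programme, and Zbtb46 marks classical dendritic cells. Zbtb32, also called ROG or PLZP, is induced when lymphocytes are activated, can bind GATA3 and restrains lymphocyte responses.

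Libraries held between 38092722 and 49438357 counts. CPM are counts scaled to library size, here with TMM factors, the trimmed mean of M values. A gene with no count was below 0.0607 to 0.0788 CPM of library totals, without TMM, depending on the library. That is the level of 3 counts and covers only counting error. Replicate 1 with SMARTA stood apart, with a median correlation of log2 CPM to the other libraries of 0.897 against 0.919 to 0.935 for the others, and with 10 erythroid marker transcripts summing to 4856 CPM against 174 to 549 CPM in the other 6 libraries. All 8 genes of the CD8 T cell list were present. Besides Cd8a and Cd8b1 it holds the general T cell genes Cd3e, Cd3d, Cd3g, Trac, Cd2 and Cd5. Their sum (marker sums are CPM of library totals, without TMM) was 8233 to 9851 CPM without and 9364 to 10938 CPM with SMARTA. Scaled by TMM, Cd8a lay between 1028 and 1948 CPM over the libraries, whereas Cd4 lay between 0.650 and 8.48 CPM. The summed level of 10 proliferation genes was 1702 to 3350 CPM without and 339 to 756 CPM with SMARTA (two-sided exact permutation test, p = 0.0571, adjusted p = 0.21 over 11 marker lists; the smallest p of 35 splits is 0.0286).

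Zbtb32 was the only member called by edgeR: it fell from 293 ± 149 CPM without SMARTA to 16.9 ± 2.02 CPM with SMARTA (mean ± SD, n = 4 and 3), a 17.3-fold decrease. It went from the most abundant member per length to the ninth. The other 34 members did not pass the test, 27 of them with a positive and 7 with a negative log2 fold change, and their sum was 640 ± 57.0 CPM without and 861 ± 20.9 CPM with SMARTA. At 1 of 35, the share of members called is close to the background, where 500 of 15896 genes, or 3.15%, were called (adjusted p under 0.05 in the quasi-likelihood test of edgeR with Benjamini-Hochberg adjustment), 241 of them higher and 259, or 1.63%, lower. With library totals in place of TMM scaling the split was 163 higher and 398 lower, and Zbtb32 was again the only member called.

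For the called gene, the 250 bases before each of the 2 annotated RefSeq start sites of Zbtb32 are printed 5′ to 3′. Both lie on the minus strand of chromosome 7 (build GRCm38.p6). Beside them stands the same window of Zbtb21, which lay nearest to the threshold among members with a positive fold change. Which start the cells use cannot be read from counts per gene. Capitals mark matches on either strand to the motif letters of AP-1 (TGANTCA), the NFAT core (GGAAA), the interferon-stimulated response element (GAAANN followed by GAAA), RUNX (TGTGGT) and the CCAAT box (CCAAT), and no 2 matches in the 3 windows share bases.
Zbtb32 upstream start, chr7:30598910-30599159: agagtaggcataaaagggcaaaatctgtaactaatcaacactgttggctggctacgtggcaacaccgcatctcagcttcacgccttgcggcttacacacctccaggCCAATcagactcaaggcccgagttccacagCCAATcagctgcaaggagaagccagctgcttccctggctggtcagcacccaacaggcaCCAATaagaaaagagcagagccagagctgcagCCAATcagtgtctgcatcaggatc
Zbtb32 downstream start, chr7:30592943-30593192: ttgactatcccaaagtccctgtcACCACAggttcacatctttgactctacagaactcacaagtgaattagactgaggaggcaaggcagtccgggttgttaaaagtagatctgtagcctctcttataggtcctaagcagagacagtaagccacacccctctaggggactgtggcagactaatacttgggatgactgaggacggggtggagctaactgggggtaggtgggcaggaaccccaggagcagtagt
Zbtb21, chr16:97962623-97962872, minus strand: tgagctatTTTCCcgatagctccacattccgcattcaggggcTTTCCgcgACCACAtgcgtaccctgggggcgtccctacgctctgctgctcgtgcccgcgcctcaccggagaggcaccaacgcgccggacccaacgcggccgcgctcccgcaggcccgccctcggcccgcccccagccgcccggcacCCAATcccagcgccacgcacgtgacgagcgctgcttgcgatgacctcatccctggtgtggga
The upstream Zbtb32 window held 4 CCAAT matches, beginning 144, 114, 56 and 24 bases before the start site, and none of the other 4 motifs. The downstream window held 1 RUNX match, 227 bases before its start site. The Zbtb21 window held 2 NFAT core matches, 1 RUNX match and 1 CCAAT match. Over all 32851 promoter windows of this length in the table, 33.8% held the CCAAT letters, 55.6% the NFAT core, 14% RUNX, 6.75% AP-1 and 2.98% the interferon-stimulated element. Promoters were listed for 33 of the 35 members, and over their 46 windows the shares were 26.1%, 54.3%, 17.4%, 2.17% and 4.35% in the same order. The CCAAT box was added to the search after the sequences had been seen, and a match is only a match of letters.

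Zbtb32 lies on the minus strand of chromosome 7 from 30589681 to 30598909 (GRCm38), its 2357 exonic bases overlap no exon of another gene in the annotation, and its level was 124, 231, 471 and 347 CPM in replicates 1 to 4 without SMARTA. With SMARTA it was 18.8, 17.3 and 14.8 CPM in replicates 1 to 3. The groups did not overlap: the lowest library without SMARTA, replicate 1, still had 6.62 times the level of the highest library with SMARTA. These values rest on 6130 to 23176 counts per library without and 502 to 885 with SMARTA, so counting error is small beside the spread between libraries.

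The log2 fold change of Zbtb32 was −4.11 ± 0.47 (SE; adjusted p by edgeR = 0.0117). By p-value it ranked 18 among the 15896 genes tested, and by the size of its decrease 39 among the 259 genes called lower. In bulk RNA a smaller number of cells that carry a transcript and less transcript per cell cannot be told apart. With 1 library left out at a time, the log2 fold change stayed between −4.40 and −3.79 and the gene was called in 6 of 7 fits. The exception was the fit without replicate 2 with SMARTA (−4.13, adjusted p by edgeR = 0.0608), and without replicate 1 with SMARTA, the library with erythroid transcripts, it was −4.20 (adjusted p by edgeR = 0.00996). Its spread also differed between the groups, with a coefficient of variation of 51.0% without and 11.9% with SMARTA. The summed proliferation genes given above are lower in the same libraries, and their part in the fall of Zbtb32 was not tested.

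**Figure D1:**
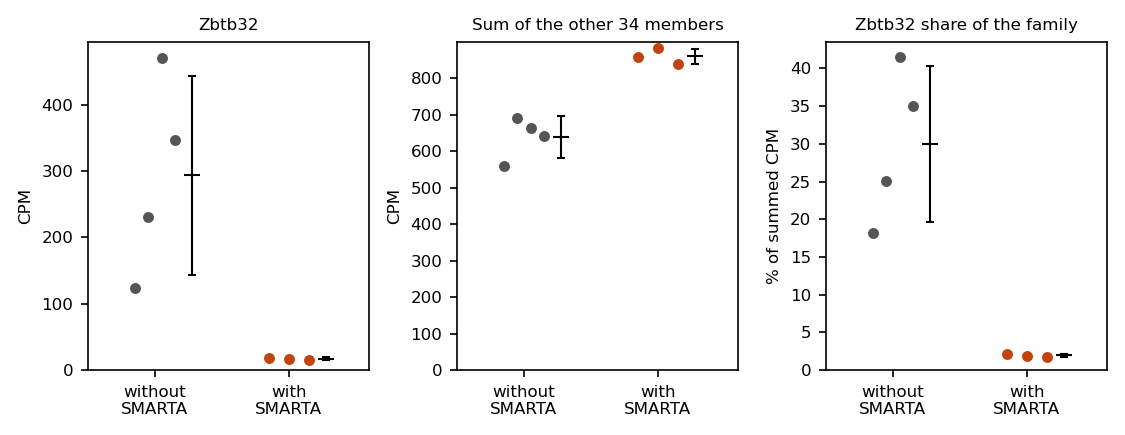
Zbtb32 (left, CPM), the sum of the other 34 members (middle, CPM) and the percentage of the family's summed CPM held by Zbtb32 (right), 1 point per library, with the group mean and SD as a black mark and bar. All 4 points of Zbtb32 without SMARTA lie at 124 CPM or above and all 3 with SMARTA at 18.8 CPM or below. In these TMM-scaled CPM the sum of the others is higher in every library with SMARTA.

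Zbtb32 alone supplied 18.2%, 25.0%, 41.5% and 35.1% of the family's summed CPM in replicates 1 to 4 without SMARTA, and 2.13%, 1.92% and 1.73% in replicates 1 to 3 with SMARTA. The sum with Zbtb32 included was 933 ± 189 CPM without and 878 ± 22.2 CPM with SMARTA, a difference smaller than the spread of the group without SMARTA. Without Zbtb32, the sum ranged from 559 to 691 CPM in the group without SMARTA and was 860, 883 and 841 CPM with SMARTA. Those groups did not overlap in TMM-scaled CPM, but the separation depends on that scaling. The TMM factors were 1.01 to 1.11 without and 0.893 to 0.973 with SMARTA. With library totals alone, replicate 2 without SMARTA lies above replicate 3 with SMARTA.

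**Figure D2:**
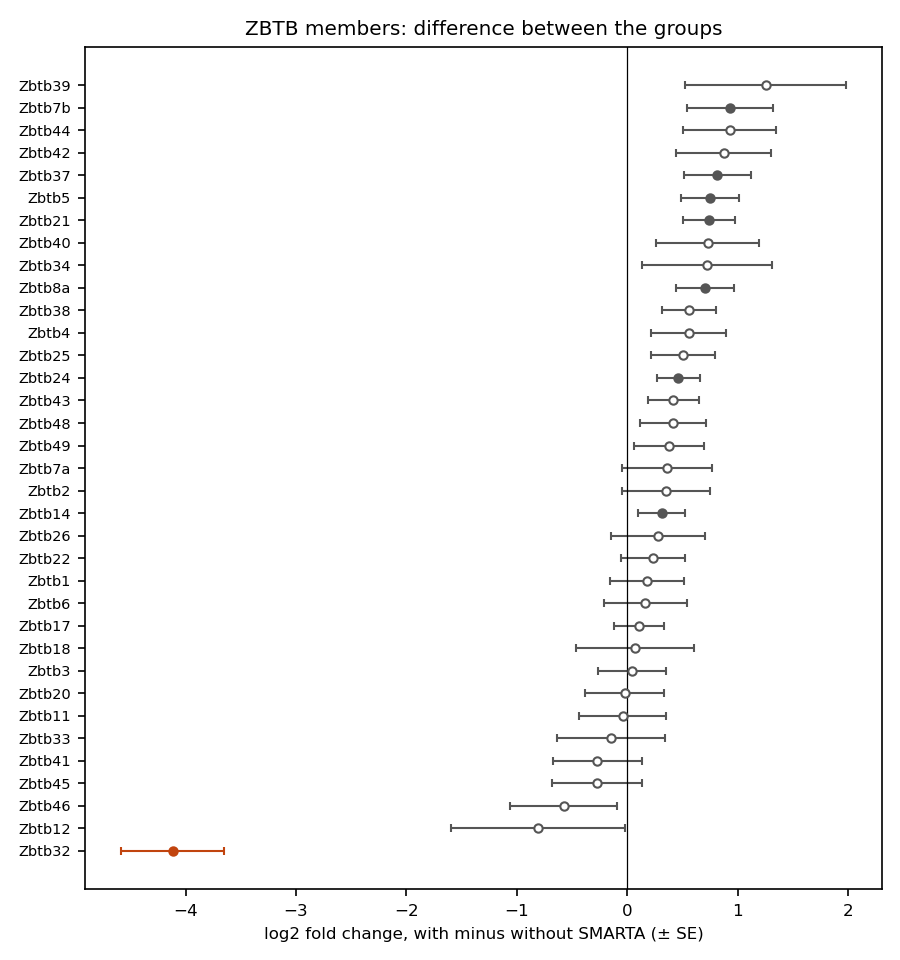
Log2 fold change (with minus without SMARTA, horizontal axis) with its standard error for the 35 members, ordered by value. The orange point is the called gene, Zbtb32. Filled grey points are uncalled members whose TMM-scaled CPM do not overlap between the groups. Open points are the rest, most of which lie to the right of 0.

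The median log2 fold change of the 35 members was 0.36, against −0.0034 over all tested genes, and 77.1% of members against 49.8% of all tested genes had a positive value. With scaling by library totals both medians moved down, to 0.22 for members and −0.16 for all tested genes, and 24 of 35 members against 40.4% of all tested genes were positive. Of the 35 members 19 lay within 0.5 log2 units of 0, and only Zbtb32 and Zbtb39 reached a difference of 1. Zbtb39, the member with the highest fold change, had 20 to 173 counts per library and a log2 fold change of 1.25 ± 0.73 (adjusted p by edgeR = 0.417), with overlapping groups. Only 5% of 2-fold and 44% of 4-fold changes simulated for this comparison were recovered by edgeR, so an uncalled member may still differ.

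In 7 of 35 members every library with SMARTA lay above every library without (background 8.73%), and in 1, Zbtb32, every library lay below (background 10.5%). The 7 are Zbtb21, Zbtb5, Zbtb8a, Zbtb37, Zbtb7b, Zbtb24 and Zbtb14, of which all but Zbtb7b and Zbtb24 are named here after their values were seen. Of the 35 members 6 had a positive log2 fold change with an unadjusted edgeR p under 0.05 (background in this direction 9.18%). All 6 are among the 7, which were picked by the separation of their groups. In the other direction Zbtb32 was the only member (background 9.37%). Both counts depend on the scaling. With library totals in place of TMM the groups of Zbtb5, Zbtb24 and Zbtb14 overlap. With that scaling 3 members, Zbtb32 included, had an unadjusted edgeR p under 0.05, and the share over all genes was not taken. Of the 7, 0 passed after adjustment by edgeR, 1 by DESeq2 and 0 by limma-voom. Zbtb21 measured 26.2, 42.6, 34.95 and 38.3 CPM in replicates 1 to 4 without SMARTA and 69.2, 49.5 and 59.0 CPM in replicates 1 to 3 with SMARTA (log2 fold change 0.74 ± 0.24, adjusted p by edgeR = 0.136). By DESeq2 it passed (0.74, adjusted p = 0.0392), but on simulated counts DESeq2 called 71 unchanged genes against 10 by edgeR. Zbtb5 averaged 24.3 ± 3.32 CPM without SMARTA cells and 40.7 ± 11.8 CPM with them (adjusted p by edgeR = 0.17), and Zbtb8a averaged 16.1 ± 3.14 and 26.2 ± 4.49 CPM (adjusted p by edgeR = 0.19). Zbtb37 was at 6.36 ± 1.18 and 11.2 ± 2.88 CPM (adjusted p by edgeR = 0.198). Zbtb14 had the lowest coefficient of variation of the 35 members without SMARTA (3.03%), with 18.8 to 20.3 CPM without SMARTA cells and 26.7, 21.7 and 24.4 CPM with them (log2 fold change 0.31 ± 0.21, adjusted p by edgeR = 0.494). Exons of other genes overlap 12.95% of the exonic bases of Zbtb5, 11.4% of those of Zbtb8a and 15.6% of those of Zbtb37, where the unstranded counting cannot tell the genes apart, and the command in the file headers sets no option that counts reads lying in several genes.

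Among members with a described role in T cells, ThPOK, the CD4 lineage factor encoded by Zbtb7b (chromosome 3, 89377644 to 89394776), measured 7.64, 19.0, 22.4 and 21.3 CPM in replicates 1 to 4 without SMARTA. With SMARTA it measured 45.4, 29.3 and 25.9 CPM in replicates 1 to 3. The groups did not overlap, with replicate 1 the lowest without and another replicate 1 the highest with SMARTA, but the difference did not pass (log2 fold change 0.93 ± 0.39, adjusted p by edgeR = 0.247). Cd4 itself, which ThPOK helps to keep on in helper cells, was at 2.71, 6.57, 0.650 and 2.51 CPM without SMARTA cells and 8.48, 2.43 and 2.29 CPM with them, so 1 library of each group was above the rest. The 4 genes of the CD4 T cell list (Cd4, Cd40lg, Foxp3 and Ctla4) summed to 280 to 501 CPM without and 264 to 812 CPM with SMARTA, most of it from Ctla4 (167 to 707 CPM), which exhausted and activated CD8 T cells also express. Cd40lg, the helper ligand CD40L, did not overlap between the groups. It was at 26.2, 44.3, 59.5 and 68.1 CPM without SMARTA cells against 88.9, 88.1 and 101 CPM in their presence. Foxp3 overlapped and had its highest values without SMARTA cells, at 2.68, 12.0, 0.638 and 3.80 CPM against 0, 1.48 and 1.84 CPM. Values of Cd40lg, Ctla4 and Foxp3 are CPM of library totals, unlike those of Zbtb7b and Cd4 given before them. The part of carried-over CD4 T cells in the Zbtb7b values was not tested.

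Zbtb24, mutated in a syndrome of immunodeficiency with unstable centromeres, was among the most abundant members, at 49.2, 50.0, 63.9 and 66.6 CPM without SMARTA cells and 78.5, 84.5 and 74.4 CPM with them. Its groups did not overlap in TMM-scaled CPM but overlap with library totals, and its log2 fold change was 0.46 ± 0.20 (adjusted p by edgeR = 0.25). Cdca7, a gene that ZBTB24 is known to activate, fell from 171 ± 60.0 to 35.8 ± 8.36 CPM (log2 fold change −2.26 ± 0.33; adjusted p by edgeR = 0.0175). In that list of 4 genes, Cdca7 was the only one called, Dnmt1 and Hells had negative log2 fold changes of −0.63 and −1.12 (adjusted p by edgeR = 0.0625 and 0.282), and the median was −0.87. These genes are also made by dividing cells, whose summed markers were lower with SMARTA, and the part of that in these values was not tested.

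Zbtb17, which encodes MIZ1, a factor that partners MYC in repression, averaged 74.7 ± 16.4 CPM without SMARTA cells and 80.4 ± 7.16 CPM with them (log2 fold change 0.11 ± 0.22, adjusted p by edgeR = 0.856), and its sign turns with library totals (−0.052). Among 10 tested MYC network genes around it, Mxd1 rose (43.8 ± 18.6 to 144 ± 32.4 CPM, log2 fold change 1.71, adjusted p by edgeR = 0.0424) and Mxd3 fell (38.9 ± 8.04 to 8.65 ± 4.30 CPM, −2.17, adjusted p by edgeR = 0.0294). Both encode MAX partners that oppose MYC, and Mxd3 is a gene of dividing cells. Myc itself, named after its values were seen, averaged 366 ± 84.7 CPM without and 149 ± 75.8 CPM with SMARTA. Its groups did not overlap, but the difference did not pass (log2 fold change −1.30 ± 0.40, adjusted p by edgeR = 0.122). The list's median was −0.28.

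Zbtb1, which lymphoid progenitors need, was at 31.2, 32.2, 38.3 and 39.1 CPM without SMARTA cells and 19.2, 53.6 and 46.7 CPM with them. Replicate 1 with SMARTA was thus the lowest library of all and the other 2 the highest, and the log2 fold change was 0.18 ± 0.34 (adjusted p by edgeR = 0.838), or 0.50 without that library. Zbtb25, whose gene lies head to head with Zbtb1 on chromosome 12 with a gap of 663 bases, averaged 10.7 ± 2.51 CPM without SMARTA cells and 15.2 ± 2.50 CPM with them (0.50 ± 0.29, adjusted p by edgeR = 0.41). Zbtb7a, which encodes LRF, a close relative of ThPOK with roles in erythroid and lymphoid cells, was at 14.1, 33.1, 44.7 and 24.1 CPM without SMARTA cells and 40.2, 48.3 and 23.3 CPM with them. It showed no separation (0.36 ± 0.41, adjusted p by edgeR = 0.709), and the library with erythroid transcripts was not its highest. Zbtb20, described as a brake on the metabolism of memory CD8 T cells, averaged 9.44 ± 3.03 CPM without SMARTA cells and 9.30 ± 2.80 CPM with them (−0.02 ± 0.36, adjusted p by edgeR = 0.985).

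**Figure D3:**
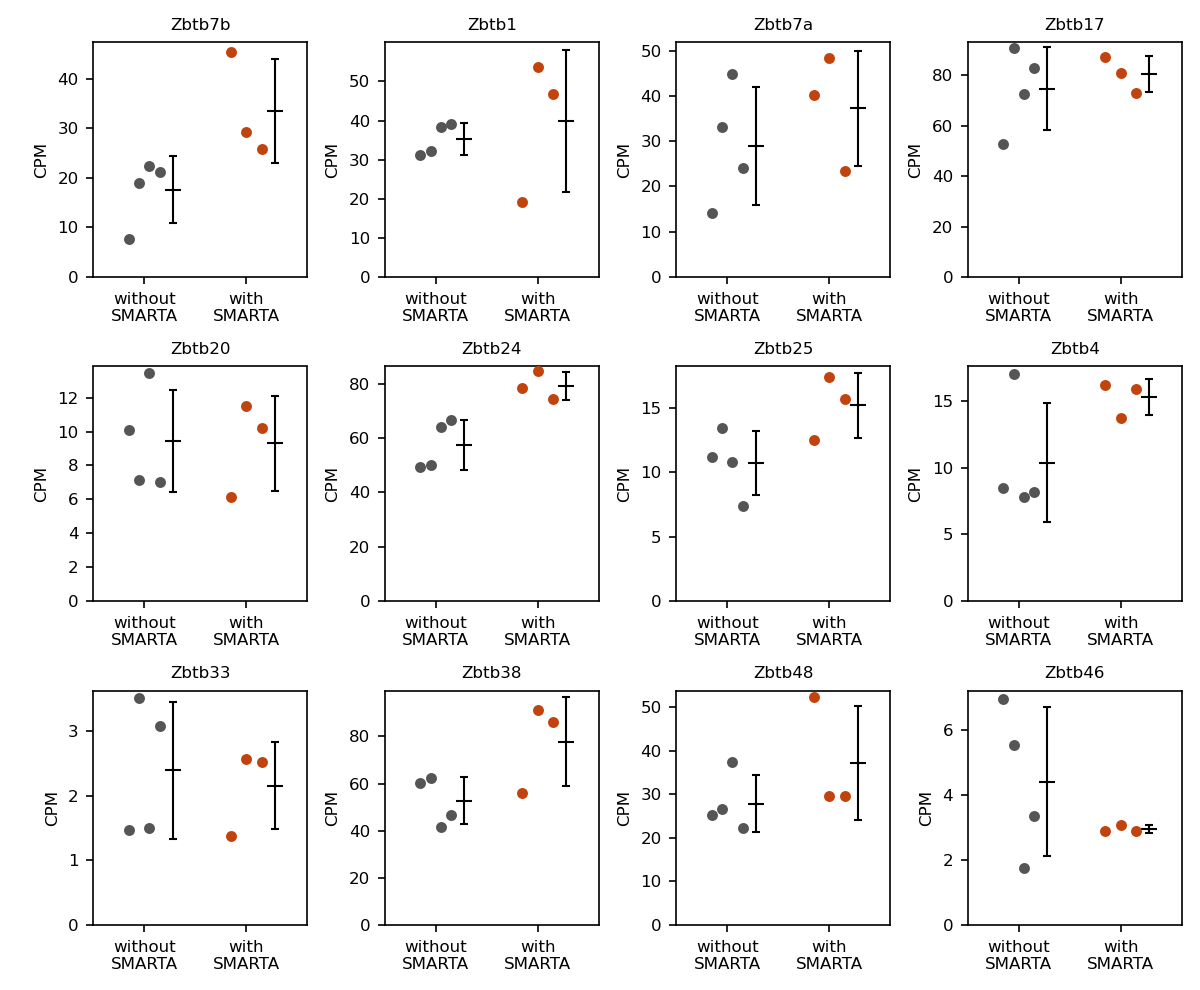
CPM of 12 members with a described role, 1 point per library, with the mean and SD of each group as a black mark and bar; every vertical axis starts at 0 and has its own scale. In these TMM-scaled CPM the groups separate for Zbtb7b and Zbtb24 and overlap in the other 10 panels.

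PLZF itself was barely detected: Zbtb16 had 10, 1, 2 and 7 counts in replicates 1 to 4 without SMARTA and 4, 4 and 1 with SMARTA, and did not meet the count rule. Of 16 listed genes of innate-like T cells 12 were tested, and 1 was called, Id2, an inhibitor of E proteins, which rose from 1213 ± 108 to 2600.3 ± 548 CPM (log2 fold change 1.10, adjusted p by edgeR = 0.0236). Id2 is broadly expressed in effector CD8 T cells. The list's median was 0.22, with 8 of 12 genes positive.

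Around Zbtb32, the 10 tested genes of the list that holds its partner GATA3, Blimp1 and activation factors had a median log2 fold change of −0.33, and 1 was called, the activation-induced factor Irf4, which fell by 2.21 log2 units (adjusted p by edgeR = 0.0424). The cytokine genes Il2 and Ifng, named after their values were seen, had log2 fold changes of −3.43 and −2.95 and lay just short of the threshold (adjusted p by edgeR = 0.0502 and 0.0587). Between 0 and 3 genes of this list were called in the alternative fits, with 0 when any of replicates 1, 3 and 4 without SMARTA or replicates 2 and 3 with SMARTA was dropped. Prdm1, which encodes Blimp1, a repressor that promotes terminal effector differentiation, averaged 112 ± 35.9 CPM in the absence of SMARTA cells and 73.0 ± 32.0 CPM in their presence. Its groups overlapped (−0.62 ± 0.34, adjusted p by edgeR = 0.39). Gata3 averaged 72.4 ± 24.6 CPM without SMARTA cells and 102 ± 41.4 CPM with them (0.49 ± 0.36, adjusted p by edgeR = 0.527). Of 13 tested genes of the choice between the CD4 and CD8 lineages, Lef1 rose (1.34, adjusted p by edgeR = 0.0239) and Tox and Myb fell (−3.09 and −2.34, adjusted p by edgeR = 0.0161 and 0.0429). Runx3, the CD8 lineage factor that opposes ThPOK, averaged 28.8 ± 7.498 CPM without SMARTA cells and 37.3 ± 0.680 CPM with them, without overlap but short of the threshold (adjusted p by edgeR = 0.51). The median of that list was 0.45. Over all 9 context lists 9 of 89 tested genes were called (background 3.15%). The lists were chosen with earlier results of these data known, so this count is no measure of enrichment. The count was between 0 and 14 when 1 library was left out, with 0 when replicate 4 without SMARTA was dropped. It was 1 when replicate 1 without SMARTA or replicate 2 with SMARTA was dropped, 2 when the third replicate of either group was dropped, and 14 when replicate 1 with SMARTA was dropped.

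The 3 members that can bind methylated CpG did not pass. Zbtb38 was the most abundant of them in CPM, at 60.1, 62.5, 41.7 and 46.8 without and 56.1, 91.2 and 86.1 with SMARTA, where replicate 1 lay within the range of the other group (0.56 ± 0.25, adjusted p by edgeR = 0.272). Zbtb4 was at 8.51, 17.03, 7.80 and 8.16 CPM without SMARTA cells and 16.2, 13.7 and 15.9 CPM with them, so only replicate 2 without SMARTA reached the level of the group with SMARTA (0.56 ± 0.34, adjusted p by edgeR = 0.443). Zbtb33, which encodes Kaiso, averaged 2.40 ± 1.06 CPM without SMARTA cells and 2.16 ± 0.679 CPM with them (−0.15 ± 0.49, adjusted p by edgeR = 0.914). Among 7 readers of methylated CpG from other families 1 was called, Uhrf1, which guides maintenance methylation behind the replication fork and fell from 211 ± 69.0 to 54.9 ± 26.8 CPM (−1.94, adjusted p by edgeR = 0.0465), with a list median of −0.12. Uhrf1 is made mainly by dividing cells, and the part of the lower proliferation genes in its fall was not tested.

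Zbtb48, which encodes the telomere-binding protein TZAP, was at 25.3, 26.5, 37.3 and 22.1 CPM without SMARTA cells and 52.2, 29.5 and 29.5 CPM with them. Only replicate 1 with SMARTA exceeded the range of the other group (0.42 ± 0.30, adjusted p by edgeR = 0.521), and without that library the log2 fold change was 0.08. Zbtb10, also described at telomeres, had 16, 3, 4 and 0 counts without and 33, 0 and 0 with SMARTA, and did not meet the count rule. None of 9 telomere genes was called (0 at adjusted p under 0.05 by edgeR, DESeq2 and limma-voom, and 0 at an unadjusted edgeR p under 0.05). The median was −0.02, and the smallest p-values were those of Tert (−1.47, adjusted p by edgeR = 0.331) and Dkc1 (−0.77, adjusted p by edgeR = 0.374).

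Zbtb46, the dendritic cell marker, was at 6.97, 5.55, 1.77 and 3.38 CPM without SMARTA cells and 2.88, 3.08 and 2.91 CPM with them. The groups overlapped, and the log2 fold change was −0.58 ± 0.49 (adjusted p by edgeR = 0.596). The 12 dendritic cell markers summed to 836 to 981 CPM without and 485 to 1008 CPM with SMARTA. Ccr7 and Itgax, which T cells also express, reached 677 and 402 CPM, and without Ccr7 the other 11 genes summed to 274 to 609 CPM without and 279 to 931 CPM with SMARTA. Levels differed widely within the list: Flt3 and Clec9a were at or below 0.371 and 0.566 CPM in every library and Cd209a was at 0 in all 4 libraries without SMARTA, whereas Xcr1 lay between 12.7 and 30.5 CPM, H2-Aa between 7.90 and 91.1 CPM and Cd74 between 46.2 and 342 CPM. The part of dendritic cells in the Zbtb46 values was not tested.

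**Figure D4:**
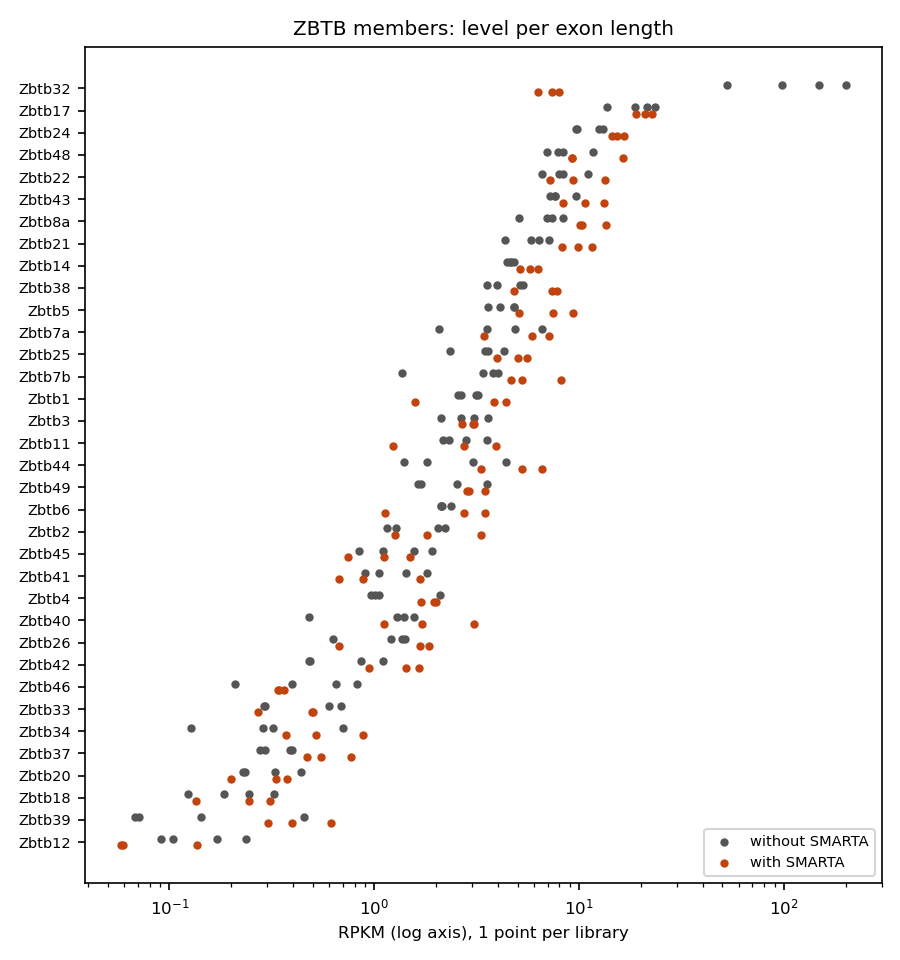
RPKM (TMM-scaled CPM per kilobase of exon, log axis) of the 35 members, 1 point per library, grey without and orange with SMARTA, ordered by the mean without SMARTA. Zbtb32 is at the top without SMARTA and falls into the range of other members with SMARTA, and every other member lies at or below 23.4 RPKM in all libraries.

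Per length, Zbtb32 led the family without SMARTA at 124 ± 63.4 RPKM, and its lowest library, at 52.7 RPKM, was above the highest of Zbtb17, at 23.4 RPKM. Zbtb17 followed at 19.3 ± 4.23 RPKM, Zbtb24 at 11.2 ± 1.78, Zbtb48 at 8.70 ± 2.06 and Zbtb22 at 8.48 ± 1.84 RPKM, the last pair not differing beyond their spread. With SMARTA Zbtb17 led at 20.7 ± 1.85 RPKM, ahead of Zbtb24 at 15.4 ± 0.992 and Zbtb48 at 11.6 ± 4.09 RPKM, and Zbtb32 was at 7.18 ± 0.858 RPKM, next to Zbtb5 at 7.27 ± 2.11 RPKM and not distinct from it. In both groups 8 members stayed under 1 RPKM, and Zbtb12 was lowest at 0.151 and 0.0848 RPKM. The median member was at 2.65 RPKM without and 2.93 RPKM with SMARTA, against 2.78 and 2.66 RPKM over all tested genes. Exonic length here is the union over all isoforms, with a median of 5960 bases for members and 3463 for all tested genes, so the RPKM of a gene with many isoforms such as Zbtb20, with 30730 exonic bases, is set low.

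**Figure D5:**
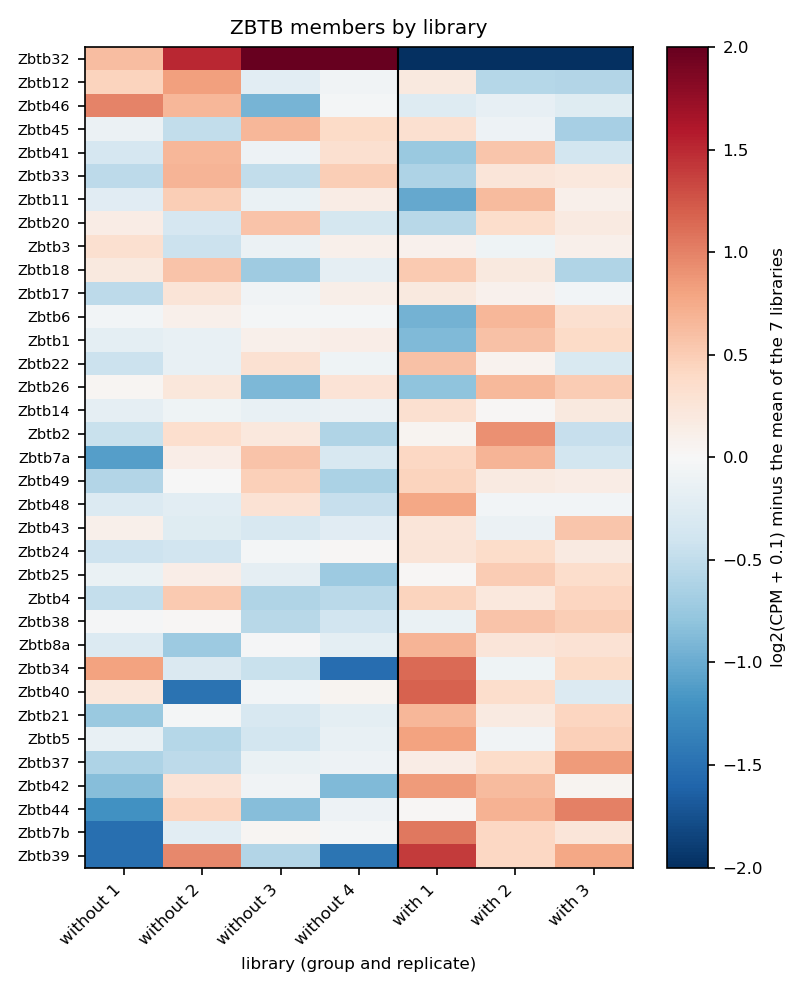
Log2(CPM + 0.1) minus the mean over the 7 libraries for the 35 members (rows, ordered by log2 fold change) in each library (columns; the line separates the groups), with colours capped at 2 units. Zbtb32, in the top row, has the strongest contrast between the groups, weakest in replicate 1 without SMARTA, and replicate 1 with SMARTA differs in colour from the other libraries of its group in rows such as Zbtb11, Zbtb6 and Zbtb40.

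Within the group with SMARTA the members differed in which library was high. Of the 34 members other than Zbtb32, replicate 1 with SMARTA was the lowest of its group in 12 and the highest in 17, and over all 7 libraries it held the highest value of 11 members and the lowest of 6. Among the members low in it were Zbtb11 at 9.22 CPM against 29.3 and 20.3 in replicates 2 and 3, and Zbtb6 at 5.70 against 17.7 and 13.9 CPM. Zbtb26, which lies on the same strand of chromosome 2 and shares 449 exonic bases with Zbtb6, was at 6.36 against 17.5 and 15.9 CPM. Zbtb40 was high in it, at 32.7 against 18.3 and 11.9 CPM. In the group without SMARTA, replicate 1 held the lowest value of all 7 libraries for 10 of the 34 members. Leaving out replicate 1 with SMARTA and replicate 2 without SMARTA together, an alternative chosen after seeing the data, gave 2 called members. They were Zbtb32 (−4.29, adjusted p by edgeR = 0.00996) and Zbtb44 (1.52, adjusted p by edgeR = 0.0447). For Zbtb44 the libraries left out are its highest without and its lowest with SMARTA. In all 7 libraries Zbtb44 was at 13.0, 41.0, 16.8 and 28.3 CPM without SMARTA cells and 30.8, 49.2 and 61.4 CPM with them (0.93 ± 0.42, adjusted p by edgeR = 0.285).

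The other members not described so far are Zbtb2, Zbtb3, Zbtb18, Zbtb22, Zbtb34, Zbtb41, Zbtb42, Zbtb43, Zbtb45, Zbtb49 and Zbtb12. Their groups overlapped, their log2 fold changes ran from −0.81 for Zbtb12 to 0.87 for Zbtb42, and their edgeR adjusted p-values from 0.33 to 0.965. Besides Zbtb10 and Zbtb16, the name rule found Zbtb7c, Zbtb8b and Zbtb9, each with at most 8 counts in any library. Just inside the rule lay Zbtb12, with 17, 22, 9 and 10 counts without and 13, 5 and 4 with SMARTA, and just outside it Zbtb10.

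Genes of the same structural family under other names gave no call among 8 tested (0 at adjusted p under 0.05 by edgeR, with 2 at an unadjusted p under 0.05, Bcl6b and Patz1, and 1 called by DESeq2 and 0 by limma-voom). Their median was −0.11. Bcl6, the factor of follicular helper and memory-precursor cells, was at 13.4, 30.6, 49.6 and 34.7 CPM without SMARTA cells and 27.0, 31.4 and 43.9 CPM with them (0.09 ± 0.41, adjusted p by edgeR = 0.941). Its relative Bcl6b was at 1.97, 3.11, 2.64 and 2.43 CPM without SMARTA cells and 0.0212, 0.410 and 0 CPM with them, without overlap, and did not pass (adjusted p by edgeR = 0.0965). Patz1, which encodes MAZR, averaged 25.0 ± 1.93 CPM without SMARTA cells and 36.8 ± 9.42 CPM with them (0.55 ± 0.24, adjusted p by edgeR = 0.264). The 17 genes of corepressor complexes and partners gave no call by edgeR either (2 at an unadjusted p under 0.05, 1 called by DESeq2, 0 by limma-voom). The smallest p-values were those of Mta3, a subunit of the NuRD complex (0.75, adjusted p by edgeR = 0.0656), and the histone deacetylase Hdac4 (0.51, adjusted p by edgeR = 0.25).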

How the data were processed

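RNA of sorted CD8 T cells was amplified by SMART-seq V4 and sequenced in pairs, per the labels' protocols. Counts are the authors' deposited whole-number counts of read pairs per gene name, aligned with STAR 2.6.0c and counted with featureCounts 1.6.2 over GENCODE M17 exons on GRCm38.p6, without strand, per the file headers and the submitters' processing notes. Libraries held 38092722 to 49438357 counts and were grouped by their titles.

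Genes were kept by edgeR's filterByExpr (minimum count 10, minimum total 15), scaled by TMM and tested with edgeR 4.0.16 (R 4.3.3), a robust quasi-likelihood fit with Benjamini-Hochberg adjustment over 15896 genes. RPKM uses the exonic length in the files. Alternatives were other scalings and filters, DESeq2 1.42.0, limma 3.58.1 (voom), a replicate block and leaving out libraries. On simulated counts for this comparison edgeR called 10 unchanged genes and found 5% of the changes set at 2-fold, 44% at 4-fold and 82% at 16-fold. DESeq2 called 71 unchanged genes and found 24%, 67% and 90%, and limma-voom called 5 and found 4%, 38% and 68%. Promoters are RefSeq's.

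The members and lists were chosen with earlier results of these data known. Genes given in full were called members, members with a described role, and of each of 9 context lists (94 entries) up to 4 called genes, or the 2 with the smallest p, plus Bcl6, Patz1, Prdm1, Gata3, Cd4 and Runx3. Marker lists, 11 in all, were compared by summed CPM. Those not given beside a result were, without against with SMARTA, macrophage and monocyte (1243 to 2033 against 2874 to 4718 CPM; without Ly6c2, which CD8 T cells also express, the other 11 genes overlapped, at 54.9 to 209.5 against 30.9 to 228 CPM), neutrophil (3.48 to 79.7 against 1.05 to 3.60 CPM), melanoma (31.8 to 123 against 57.4 to 125 CPM), B cell (5.02 to 35.1 against 11.5 to 60.7 CPM), NK and innate-like (3041 to 4165 against 2686 to 3515 CPM) and fibroblast and endothelial (89.6 to 136 against 151 to 211 CPM; without Pecam1, which T cells also express, the other 7 overlapped, at 0.844 to 44.9 against 8.82 to 43.0 CPM). Most of the NK and innate-like sum came from Nkg7 (2939 to 4123 CPM without and 2659 to 3391 CPM with SMARTA). The other 4 genes of that list overlapped, at 42.0 to 101.5 against 17.8 to 124 CPM. In the melanoma list Gpnmb was at 24.7 to 54.3 CPM without and 48.1 to 118 CPM with SMARTA. The other 7 melanoma genes summed to 6.91 to 68.4 CPM without against 6.70 to 9.24 CPM with SMARTA. By exact permutation test the smallest adjusted p over the lists was 0.157. For 1 of the 9 context lists the median and 1 item are not reported here.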

Additional observations from a re-analysis of the deposited data

Results flagged for a closer look

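In 3 of the measures taken over the 4 libraries without SMARTA, the gap between 1 library and the next was large relative to the range. Each time that library was replicate 2. Zbtb4 was at 17.03 CPM there against 7.80 to 8.51 CPM in the other 3 libraries. Zbtb6 was at 11.99 CPM against 10.7 to 10.9 CPM, a small difference that was flagged because the other 3 values lie close together. The summed melanoma markers were at 122.8 CPM against 31.8 to 43.3 CPM. Chance flags about 1 in 20 such groups, and 46 groups were examined. Whether the melanoma transcripts and the level of Zbtb4 are related was not tested.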

How the results depend on the processing

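Zbtb32 stayed negative in every fit run, from −4.40 to −3.79, and was called in all but the fit without replicate 2 with SMARTA and the fit with the replicate block (−3.82, edgeR adjusted p = 0.326). With the replicate block edgeR called 0 genes, 0 members (3 at an unadjusted p under 0.05) and 0 context genes. Same-numbered libraries did not deviate together (correlations −0.14, 0.03 and −0.27, against −0.09 to 0.25 for differently numbered pairs). The labels do not say whether the numbers mark a shared animal or day, and 3 correlations with such a spread cannot decide it. DESeq2, which called 71 unchanged genes in the simulation, called 1741 genes, 2 members (Zbtb32 and Zbtb21) and 22 context genes. A filter of at least 5 CPM in 3 libraries gave 842 genes and 14 context genes. Library totals gave a member median of 0.22. With 1 library left out, 17 to 907 genes, 0 to 1 members and 0 to 14 context genes were called, and the member median ran from 0.26 to 0.44. Without replicate 1 with SMARTA and replicate 2 without SMARTA, an alternative chosen after seeing the data, 1257 genes, 2 members and 16 context genes were called.

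Signs turned only for uncalled members. With library totals Zbtb18 was −0.088, Zbtb17 −0.052 and Zbtb3 −0.11, and with the stricter filter Zbtb3 was −0.051. Zbtb6 was −0.0073 by limma-voom, and Zbtb33 was 0.062 with the replicate block. With 1 library, or both of those named, left out, the ranges were −0.070 to 0.21 for Zbtb17, −0.45 to 0.46 for Zbtb11, −0.10 to 0.13 for Zbtb3, −0.37 to 0.34 for Zbtb33, −0.22 to 0.32 for Zbtb18, −0.20 to 0.20 for Zbtb20, −0.058 to 0.39 for Zbtb22, −0.18 to 0.55 for Zbtb6, −0.12 to 0.62 for Zbtb2, −0.092 to 0.50 for Zbtb1, −0.74 to 0.18 for Zbtb41 and −0.0038 to 0.97 for Zbtb40. The log2 ratios of marker sums ran from −0.48 to 1.36 for B cells, −0.73 to 2.54 for erythroid cells and −0.24 to 0.67 for CD4 T cells. The cause of these changes was not tested. Counting error does not limit Zbtb32, but members with few counts, such as Zbtb12 and Zbtb39, are measured with little precision.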
